A study of Mus musculus with 6 samples.

Results

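Cytolytic granule genes were examined by bulk RNA-seq in GFP+Lin-c-Kit+ leukemia cells sorted from mouse spleen, as the rows of 6 genes (Gzmb, Gzma, Gzmc, Nkg7, Prf1 and Ctsc) among the 53618 named rows of the deposited table. The members were chosen by their values in this same comparison: Gzmb and Nkg7 were picked because they are higher in all tamoxifen libraries, with Gzma and Prf1 as granule genes without reads. Their values are therefore described and not tested. All mice carried Usp18+/f UBCER-Cre AE9a leukemia cells, in which the leukemogenic fusion fragment AML1-ETO9a and GFP come from a retrovirus and the ubiquitin C promoter drives a tamoxifen-activated Cre in every cell type of the donor line. The oil group (3 libraries, Usp18+/f) and the tamoxifen group (3 libraries, labelled Usp18+/Δ) were sorted 3 days after the first injection, from irradiated wild-type recipients whose own blood cells were meant to be excluded by the GFP gate. Ages are not given per sample, and no tamoxifen group without the floxed allele is among these libraries, so that tamoxifen itself and loss of the allele cannot be told apart.

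Granzymes are serine proteases that cytotoxic T cells and natural killer (NK) cells store in secretory granules and release onto target cells, where perforin, encoded by Prf1, lets them enter the cytosol. Cathepsin C, encoded by Ctsc, trims the amino end of granzyme, elastase and mast cell chymase precursors and thereby activates them. Nkg7 encodes a membrane protein of cytotoxic granules needed for their efficient release, and mouse mast cells are also known to hold granzyme B in the absence of perforin.

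The libraries held 19172471 to 23785143 reads. Usp18, the targeted gene, went against its labels, with 217, 214 and 176 normalized counts in oil and 477, 329 and 284 in tamoxifen (log2 difference 0.81 ± 0.25 SE, limma adjusted p = 0.666, difference 0.60 without tamoxifen 1), so every library is named here by its label. Values per gene do not separate reads of the floxed and the deleted allele, so this level is no measure of the deletion. The library labelled tamoxifen 1 stood apart: its median correlation with the others was 0.912 against 0.981 to 0.990 for the remaining 5, and mitochondrial genes took 0.00923% of its reads against 1.01% to 1.56%. Log2 differences are given with all libraries and, beside them, without this one. Kit, which encodes the c-Kit protein of the sort, stood at 4687 to 10976 normalized counts, and the genes of the fusion partners, Runx1 (9996 to 12791) and Runx1t1 (1532 to 2097), were read in every library. Ptprc, which encodes the leukocyte antigen CD45, had at most 8.08 normalized counts, and the myeloid factor gene Cebpa had at most 6.06.

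Promoter sequence is shown for the 2 members that set the groups apart and for Gzmc, which lies next to Gzmb, shares the longest identical run with it and had no reads. The bases come from RefSeq (GRCm38.p6, the build mm10) and end directly before the RefSeq start, from which distances are counted, except for Nkg7, where 185 of the 250 bases are shown because the GENCODE start lies 65 bases before the RefSeq start. For Gzmb the RefSeq start lies 74 bases before the GENCODE start that bounds the gene position given below, and for Gzmc 1 base before it. Gzmb lies at chr14:56262335-56262584 (minus strand), Gzmc at chr14:56234658-56234907 (minus strand) and Nkg7 at chr7:43436888-43437072 (plus strand). Capitals mark the letters TGTGGT (the RUNX motif bound by AML1, read as ACCACA on the other strand), TGANTCA (AP-1) or TTCNNNGAA (the STAT motif GAS), searched on both strands.
Gzmb promoter: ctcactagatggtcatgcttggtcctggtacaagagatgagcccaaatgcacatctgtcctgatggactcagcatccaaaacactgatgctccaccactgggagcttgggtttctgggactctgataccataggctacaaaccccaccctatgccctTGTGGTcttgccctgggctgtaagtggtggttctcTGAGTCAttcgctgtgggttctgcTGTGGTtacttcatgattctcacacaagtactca
Gzmc promoter: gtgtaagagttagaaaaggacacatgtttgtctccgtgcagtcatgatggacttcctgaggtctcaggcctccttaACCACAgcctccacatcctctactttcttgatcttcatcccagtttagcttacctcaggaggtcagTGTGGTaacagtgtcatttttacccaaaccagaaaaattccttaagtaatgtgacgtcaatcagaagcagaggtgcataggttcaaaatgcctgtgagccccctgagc
Nkg7 promoter: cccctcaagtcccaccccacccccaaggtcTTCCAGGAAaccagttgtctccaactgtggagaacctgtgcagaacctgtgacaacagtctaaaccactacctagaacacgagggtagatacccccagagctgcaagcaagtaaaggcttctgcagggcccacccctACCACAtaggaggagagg
The Gzmb window held 2 RUNX motifs, 93 to 88 and 34 to 29 bases before the start, and between them the AP-1 letters TGAGTCA, 58 to 52 bases before the start. The Gzmc window, from a gene without reads, also held 2 RUNX motifs. The Nkg7 window held 1 RUNX motif and 1 GAS motif. Of the members not printed, Gzma and Prf1 each held 1 RUNX motif, Gzma also held 1 match to the interferon response element ISRE (GAAA, any 2 bases, GAAA), and Ctsc held 1 GAS motif alone. Among 32851 RefSeq promoters of 250 bases, 14% held the RUNX letters, 1.27% held them at 2 or more places, 6.75% held AP-1, 7.02% GAS and 2.98% ISRE. These matches describe letters, and binding to them was not tested.

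Gzmb (ENSMUSG00000015437.5, chr14:56258838-56262260, minus strand) was low in oil and about an order of magnitude higher in tamoxifen. Its normalized counts were 5.39, 6.75 and 6.50 in oil 1 to 3 and 83.1, 71.7 and 74.6 in tamoxifen 1 to 3. The groups did not overlap, and within each group the libraries lay close together, with the highest over the lowest at 1.25 in oil and 1.16 in tamoxifen. The means were 6.21 ± 0.725 and 76.5 ± 5.90 (SD, n = 3 each), a ratio of 12.3. On the scale log2(normalized count + 1) the difference was 3.43, and without tamoxifen 1 it was 3.37. The reads behind these values were few, 20 over the oil libraries and 218 over the tamoxifen libraries. Gzmb reached the filter of 10 normalized counts in 3 libraries through the tamoxifen libraries alone.

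Reads of Gzmb could in principle come from a relative, since granzymes share sequence. No word of 50 bases out of 1387 in its transcript occurred in the transcripts of another gene. The longest identical run was 49 bases, shared with Gzmc, and it is shown because it is the stretch of coding sequence where the pair is hardest to separate.
Gzmb and Gzmc shared coding run: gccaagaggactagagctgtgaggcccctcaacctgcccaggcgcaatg
This run spans transcript positions 463 to 511, inside the coding part from 112 to 852. The next longest runs were 26 bases with Gzme and 23 bases with Gzmn. Gzmc shared 35 of its own words of 50 bases (4.14%) with Gzmd, Gzme or Gzmg.

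Nkg7 (ENSMUSG00000004612.9, chr7:43437073-43438249, plus strand) was also higher in tamoxifen, with a wider spread. It stood at 159, 58.9 and 89.1 normalized counts in oil 1 to 3 and at 644, 193 and 661 in tamoxifen 1 to 3. The lowest tamoxifen library lay above the highest oil library, but tamoxifen 2 was closer to oil 1 than to the other tamoxifen libraries. The means were 102 ± 51.4 and 499 ± 266 (SD, n = 3 each), a ratio of 4.88, and the ratio was 4.17 without tamoxifen 1. The log2 difference was 2.19 with all libraries and 1.91 without tamoxifen 1. The highest library was 3.43 times the lowest in tamoxifen and 2.70 times in oil. No word of 50 bases of Nkg7 was shared with another gene.

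Ctsc (ENSMUSG00000030560.17, chr7:88278085-88310888, plus strand) had no common direction. It stood at 3338, 2999 and 3211 normalized counts in oil 1 to 3 and at 958.5, 3542 and 3424 in tamoxifen 1 to 3. The tamoxifen 1 library was far below all others, while tamoxifen 2 and 3 were above every oil library. The log2 difference was -0.49 with all libraries and 0.13 without tamoxifen 1, so its sign rests on this library, and the ratio of means without it was 1.09. The lincRNA gene Gm26522 overlaps Ctsc on the opposite strand, and the strand setting of the counting is not stated.

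Gzma (ENSMUSG00000023132.8, chr13:113093825-113100981, minus strand), Gzmc (ENSMUSG00000079186.3, chr14:56231441-56234656, minus strand) and Prf1 (ENSMUSG00000037202.6, chr10:61297833-61304680, plus strand) had 0 reads in all 6 libraries. Granzyme A is the second classical granzyme of cytotoxic lymphocytes, granzyme C belongs to the cluster next to granzyme B, and perforin is the pore former. A count of 0 allows up to 0.126 to 0.157 CPM in a single library, or 0.0225 CPM over the 133453534 reads of all libraries, taking 3 reads as the limit and counting error only. Of the 6 members, 3 had reads and 3 passed the filter for low values, and of these 2 had groups that did not overlap with tamoxifen higher. Among the 12298 genes that passed this filter, 7.86% had groups that did not overlap with tamoxifen higher and 9.69% with tamoxifen lower. The rule used this contrast, so nothing is read from the members' share.

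**Figure D1:**
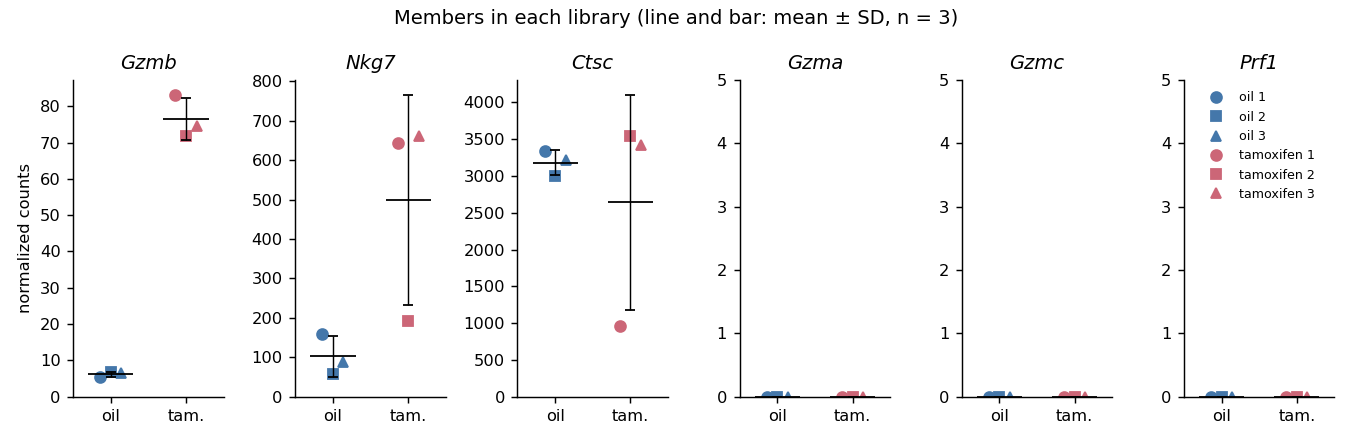
Normalized counts (vertical axis, linear, a separate scale in each panel) of the 6 members in each oil and tamoxifen (tam.) library, with the mean as a line and the SD as a bar (n = 3). Gzmb and Nkg7 are higher in all tamoxifen libraries, Ctsc is at 958.5 in tamoxifen 1 against 2999 to 3542 elsewhere, and Gzma, Gzmc and Prf1 are at 0 throughout.

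The order of levels among the members was compared per kb of exon, since counts grow with transcript length. In oil, Ctsc had a mean of 548 normalized counts per kb (range 516 to 575), Nkg7 had 112 (64.4 to 174) and Gzmb had 4.33 (3.75 to 4.70), and these ranges did not overlap. In tamoxifen, Nkg7 had a mean of 546 (211 to 723), Ctsc had 455 (165 to 610) and Gzmb had 53.2 (49.95 to 57.9). Nkg7 and Ctsc overlapped there and are not separated beyond their spread, and Gzmb remained the lowest of these 3 in every library. By its group median per kb, Gzmb stood at percentile 5.80 in oil and 29.0 in tamoxifen among 12150 ranked genes, and Nkg7 at percentile 40.7 and 84.4. So Gzmb in the tamoxifen libraries was still below most genes tested, while Nkg7 by its group median came to lie among the more abundant ones. Its lowest tamoxifen library, at 211 per kb, was near its highest oil library, at 174.

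The deviation of tamoxifen 1 followed the GC content of transcripts. Its log2 distance from the mean of tamoxifen 2 and 3 had a median of -2.06 for genes of 34 to 36% GC and 1.20 for genes of 64 to 66% GC. Gzmb (46.2% GC) was at 0.18, against a median of -0.34 and quartiles of -0.84 and 0.09 over 1080 genes within 1 percentage point of its GC content. Nkg7 (53.1% GC) was at 0.85, against a median of 0.40 and quartiles of -0.02 and 0.74 over 1170 genes. Ctsc (41.1% GC) was at -1.86, against a median of -1.12 and quartiles of -1.67 and -0.63 over 695 genes. Since Gzmb and Nkg7 were chosen for high values in every tamoxifen library, tamoxifen 1 included, their positions are a description. After a correction for GC content in each library, added after seeing the data, the log2 differences were 3.59 for Gzmb, 2.07 for Nkg7 and -0.06 for Ctsc.

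**Figure D2:**
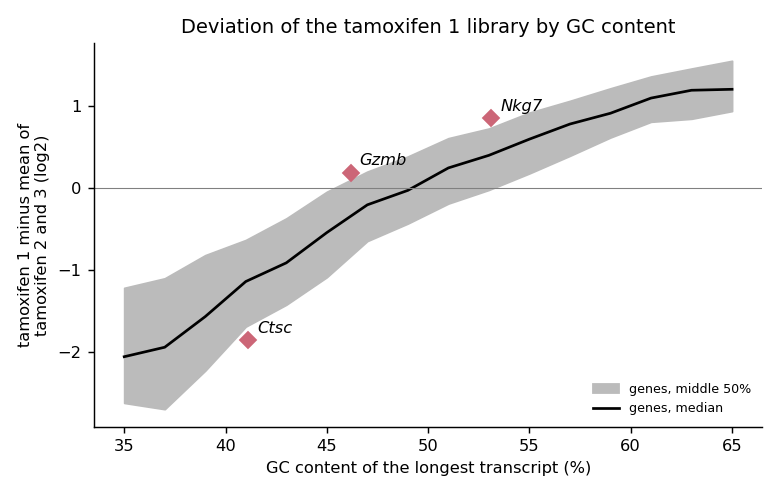
Log2 value in tamoxifen 1 minus the mean of tamoxifen 2 and 3 (vertical axis) against the GC content of the longest transcript in percent (horizontal axis), with the median of genes as a line and their middle 50% shaded, in bins of 2 percentage points. Gzmb at 0.18 lies at the upper edge of the shaded range, Nkg7 at 0.85 just above it and Ctsc at -1.86 just below it.

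The genes whose pattern over the 6 libraries was most like each member were found by Pearson's r of log2(normalized count + 1). These r values describe 6 points that fall into the same groups for all genes, and carry no test. For Gzmb they were Ifit1 (r = 0.991), Ogfrl1 (0.990), Frmd6 (0.989), Gm15774 (0.987) and Rsad2 (0.984). Ifit1 and Rsad2 encode antiviral proteins known as interferon-stimulated genes. Ifit1 stood at 32.3, 39.6 and 25.1 normalized counts in oil and at 298, 226 and 236 in tamoxifen. Rsad2 stood at 1.80, 2.89 and 1.86 in oil and at 29.4, 24.2 and 15.5 in tamoxifen.

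For Nkg7 the most alike genes were Smpd1 (r = 0.998), Bcl2 (0.998), Spred1 (0.998), Src (0.995) and Rxrg (0.992). Bcl2, which encodes an inhibitor of apoptosis, stood at 14.4, 6.75 and 9.29 in oil and at 52.4, 20.2 and 55.5 in tamoxifen. Rxrg, a nuclear receptor gene, stood at 181, 76.2 and 99.4 in oil and at 561, 210.1 and 439 in tamoxifen. Like Nkg7, both were highest among the oil libraries in oil 1 and lowest among the tamoxifen libraries in tamoxifen 2. Their choice by correlation with Nkg7 favours such a shared order. For Ctsc the most alike genes were 1700030C10Rik (r = 0.9996), Patl1 (0.999), Mocs2 (0.999), Rpl28 (0.999) and Gyg (0.999). Each of these 5 was lowest in tamoxifen 1, for example Rpl28 at 9913 normalized counts against 21901 to 25000 in the other libraries. Here too the choice by correlation favours the shared order.

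The remaining granzymes were at or near 0. Gzmf, Gzmg, Gzmk and Gzmn had 0 reads in every library, Gzmd had 2 reads, in oil 2, and Gzme had 1 read, in tamoxifen 3. Gzmm, which encodes a granzyme of NK cells located outside the chromosome 14 cluster, had 14.4, 18.3 and 11.1 normalized counts in oil and 12.8, 12.1 and 11.8 in tamoxifen. Its groups overlapped and the log2 difference was -0.21 ± 0.34 (SE, limma adjusted p = 0.759), and -0.24 without tamoxifen 1.

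Gzmb lies at the end of a run of 15 protein-coding genes on chr14:55941451-56262260, a span of 321 kb that begins with the mast cell chymase gene Cma1. Mast cell protease and granzyme genes in this run share an ancestor. Several chymase genes of the first part were abundant, while the granzyme part was at or near 0 except for Gzmb. Per kb of exon, Cma1 had a mean of 10136 normalized counts in oil and 14913 in tamoxifen, Mcpt1 had 5858 and 3262, Mcpt2 had 2254 and 1627, and Mcpt4 had 346 and 348. Ctsg, the cathepsin G gene, had 66.4 and 125 per kb, Cma2 had 21.6 and 20.6, and Mcpt9 had 1.26 and 2.54. The 4 genes directly before Gzmb (Gzmg, Gzmn, Gzmf and Gzmc) had no reads.

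Mcpt8, which encodes a basophil protease, was the only other gene of the run whose groups did not overlap. Among all genes tested this held for 7.86% with tamoxifen higher and 9.69% with tamoxifen lower. It stood at 27.9, 26.1 and 40.9 normalized counts in oil and at 60.1, 78.8 and 96.4 in tamoxifen. The log2 difference was 1.29 ± 0.31 (SE; 1.46 without tamoxifen 1), with a limma adjusted p of 0.666 and, on the recovered reads, a DESeq2 adjusted p of 0.0936, which was 0.0121 without tamoxifen 1. Mcpt1 had a log2 difference of -0.85 ± 0.35 with overlapping groups (adjusted p = 0.666), and Cma1 had 0.46 ± 0.32 (adjusted p = 0.666). Without tamoxifen 1 these were -0.60 and 0.75. Neighbours of Gzmb thus had values in both directions.

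**Figure D3:**
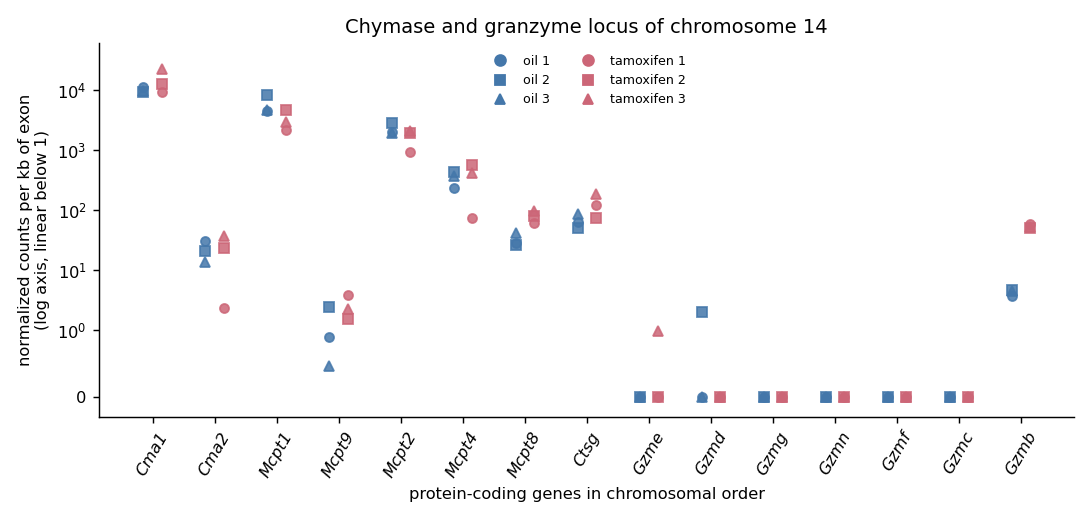
Normalized counts per kb of exon (vertical axis, logarithmic above 1 and linear below) for the 15 genes from Cma1 to Gzmb in chromosomal order (horizontal axis), 1 point per library. Levels are highest for Cma1 and Mcpt1, at or near 0 from Gzme to Gzmc, and at 4.33 in oil and 53.2 in tamoxifen for Gzmb (means).

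The wider pathway was followed in 8 lists with 139 genes in all, other granzymes and the locus included. Of these, 136 were in the table, 23 had no reads in any library and 87 passed the filter. By limma, 0 of the 87 passed an adjusted p of 0.05 in either direction, against 0 of 12298 genes higher and 0 lower (0% each). At an unadjusted p under 0.05, 8 were higher and 2 lower in tamoxifen, against 397 (3.23%) and 153 (1.24%) of all genes tested. Of these 8, Elane and Nfil3 had passed the filter through the tamoxifen libraries alone and so had to be higher there. Groups did not overlap for 12 genes with tamoxifen higher and 9 with tamoxifen lower, against 7.86% and 9.69% of all genes tested, so that the count of lower genes was close to the background. The median log2 difference was 0.04 for the lists and -0.02 for all genes, and without tamoxifen 1 it was -0.01 and -0.02.

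With DESeq2 on the recovered reads, 0 of 99 pathway genes passed in either direction (without adjustment 14 higher and 2 lower, against 4.42% and 0.988% of all genes). The adjusted calls over all genes were 69 of 15784 genes higher (0.437%) and 2 lower (0.0127%). With tamoxifen 1 left out, limma again called 0 pathway genes (without adjustment 13 higher and 6 lower, against 6.04% and 6.06% of all genes). Over all genes it then called 38 genes higher (0.309%) and 3 lower (0.0244%). DESeq2 then called 3 pathway genes higher and 0 lower, against 174 of 13642 genes higher (1.28%) and 56 lower (0.41%). These 3 were Mcpt8, Tnfsf10 and Havcr2.

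Among the cathepsins and the substrates of cathepsin C, 14 of 19 genes in the table were tested, with 10 positive and 4 negative differences and 0 called by limma (without adjustment 2 higher, Elane included, and 0 lower, against 3.23% and 1.24% of all genes). Elane, the neutrophil elastase gene, stood at 1.80, 0 and 1.86 normalized counts in oil and at 10.2, 11.1 and 10 in tamoxifen. Its groups did not overlap, but these values rest on 4 reads in oil and 30 in tamoxifen, and it passed the filter through the tamoxifen libraries alone. The log2 difference of 2.52 (2.53 without tamoxifen 1) is therefore given as a description. Prss57, another granule serine protease gene, had a log2 difference of 0.75 ± 0.29, and Lgmn, the legumain gene, had 0.98 ± 0.44 (adjusted p = 0.666 each). Without tamoxifen 1 these were 0.55 and 0.60. Ctso, the only tested gene of this list whose groups lay apart with tamoxifen lower, had -1.12 ± 0.61 (limma adjusted p = 0.666). Its difference without tamoxifen 1 was -0.38. With tamoxifen higher, 3 genes of the list lay apart, against 7.86% higher and 9.69% lower of all genes tested. The lysosomal cathepsin genes Ctsb and Ctsd had means per kb of 1546 and 1601 in oil, above that of Ctsc. Ctsb was at 1544 per kb in tamoxifen, and Ctsd was at 2192 with the excess in tamoxifen 1.

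Inhibitors of granzymes and cathepsins had 9 genes tested of 20 in the table, with 2 positive and 7 negative differences and 0 called by limma (1 higher and 0 lower unadjusted, against 3.23% and 1.24% of all genes). Groups did not overlap for Serpina3g (tamoxifen higher) and for Serpinb9, Serpinb6b and Cstb (tamoxifen lower). These were 1 and 3 of the 9 tested, against 7.86% and 9.69% of all genes tested. Serpina3g, which encodes a serine and cysteine protease inhibitor, stood at 109, 6.75 and 38.1 normalized counts in oil and at 1279, 194 and 1878 in tamoxifen. The groups did not overlap, and tamoxifen 2 was again the lowest of its group. The ratio of means was 21.8 (20.2 without tamoxifen 1), with a log2 difference of 4.60 ± 1.18 (SE, 4.24 without tamoxifen 1, limma adjusted p = 0.666, DESeq2 adjusted p = 0.0558). Serpinb9, the intracellular inhibitor of granzyme B, stood at 913, 993 and 854 in oil and at 363, 795 and 800.3 in tamoxifen. Its log2 difference was -0.58 ± 0.33 (adjusted p = 0.666) and -0.20 without tamoxifen 1. Serpinb6b, which encodes an inhibitor of granzyme A, had -0.31 ± 0.15 (adjusted p = 0.666) and -0.24 without tamoxifen 1. Cstb had -0.38 ± 0.26 (limma adjusted p = 0.666) and -0.10 without tamoxifen 1.

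Of the granule storage and exocytosis genes, 19 of 21 were tested, with 9 positive and 10 negative differences and 0 called by limma (1 higher and 1 lower unadjusted, against 3.23% and 1.24% of all genes). Srgn encodes serglycin, the proteoglycan that binds granzymes in granules, and it had a mean of 12368 normalized counts per kb in oil and 10440 in tamoxifen, over percentile 99 of the ranked genes in both. Cst7, an inhibitor of cathepsin C from the preceding list, had 1677 and 1274 per kb, with tamoxifen 1 at 574 and the highest tamoxifen library at 1693. Unc13d, needed for granule fusion, had 556 per kb in oil and 872 in tamoxifen, with the highest value, 1379, in tamoxifen 1. Cd63, a granule membrane gene, had a log2 difference of 0.77 ± 0.28, Sytl1 had 1.22 ± 0.59 and the amino acid transporter gene Slc7a7 had -0.72 ± 0.26 (limma adjusted p = 0.666 each). Without tamoxifen 1 these were 0.78, 0.71 and -0.49.

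Genes encoding substrates of granzyme B had 18 of 19 tested, with 11 positive and 7 negative differences and 0 called by limma, also without adjustment. Bid, which links granzyme B to mitochondria, had a log2 difference of 0.36 ± 0.22 (SE, limma adjusted p = 0.666), and 0.15 without tamoxifen 1. The median of this list was 0.06 with all libraries and -0.03 without tamoxifen 1.

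Among the regulators of cytolytic genes, 19 of 29 were tested, with 13 positive and 6 negative differences and 0 called by limma (3 higher, Nfil3 included, and 0 lower unadjusted, against 3.23% and 1.24% of all genes). Tbx21 and Eomes, the T-box factor genes of cytotoxic lymphocytes, and Stat4 had 0 reads in every library. Runx3, a RUNX factor gene, stood at 1445, 1406 and 1404 normalized counts in oil and at 1939, 1689 and 1819 in tamoxifen. Its groups did not overlap, with a log2 difference of 0.35 ± 0.13 (SE, limma adjusted p = 0.666) and of 0.31 without tamoxifen 1 and 0.14 after the GC correction. Of the 19 tested genes of this list, 4 had groups that lay apart with tamoxifen higher, Nfil3 included, and 0 with tamoxifen lower. Among all genes tested these shares were 7.86% and 9.69%. Nfil3, a factor gene of NK cell development, stood at 6.29, 2.89 and 2.79 in oil and at 10.2, 10.1 and 13.6 in tamoxifen, and it too passed the filter through the tamoxifen libraries alone. Il12rb2, an interleukin 12 receptor gene, had 1.26 ± 0.52 (adjusted p = 0.666), and 1.18 without tamoxifen 1.

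Among the other effectors of cytotoxic cells, Fasl, Ifng, Lta, Xcl1, Ccl3, Ccl4 and Tigit had 0 reads in every library, and 2 of the 15 genes were tested. Tnfsf10, which encodes the death ligand TRAIL, stood at 869, 839 and 825 in oil and at 360, 1098 and 1168 in tamoxifen. The immune receptor gene Havcr2 stood at 252, 197 and 170 in oil and at 78.0, 253 and 556.5 in tamoxifen. In both, tamoxifen 1 was the lowest of all libraries. Their log2 differences were -0.13 ± 0.45 and 0.13 ± 0.67 (limma adjusted p = 0.891 and 0.928), and 0.42 and 0.88 without tamoxifen 1 (limma adjusted p = 0.0994 and 0.278, DESeq2 adjusted p = 0.0122 and 0.0312).

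**Figure D4:**
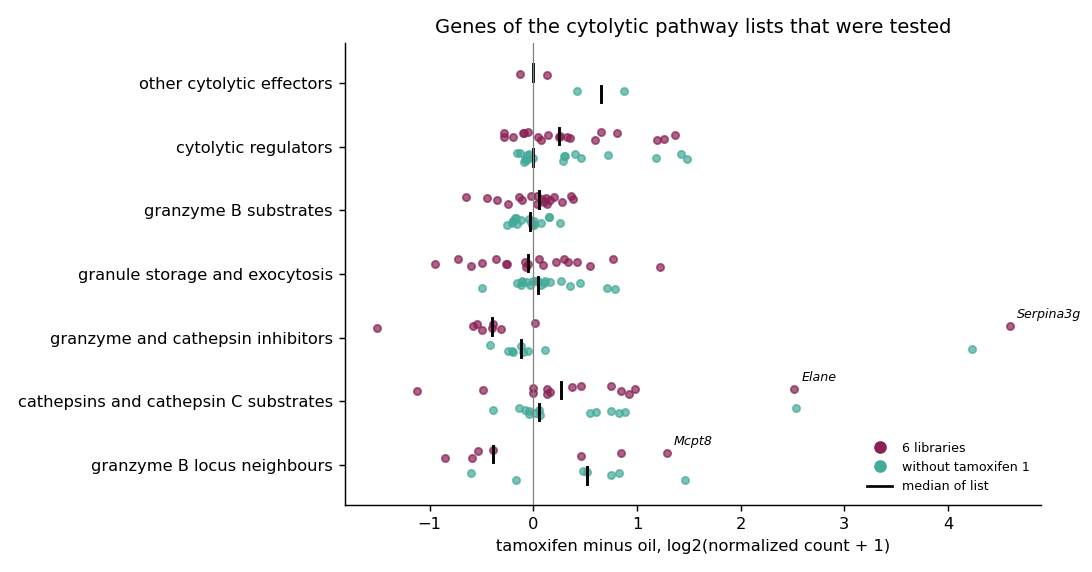
Log2 difference, tamoxifen minus oil (horizontal axis), of each tested gene in 7 lists (vertical axis), with all 6 libraries or without tamoxifen 1, and the median of each list as a black line. The list of other granzymes is not drawn because Gzmm alone was tested. Medians lie between -0.40 and 0.27 with all libraries, and Serpina3g (4.60) and Elane (2.52) lie farthest to the right.

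Marker genes of the cell types known for Gzmb and Nkg7 were read beside these values. In bulk libraries, more cells of a type and more RNA per cell cannot be told apart. For NK cells, 12 of 22 markers had 0 reads in all libraries and 17 stayed under 10 normalized counts. All 3 that were tested had positive differences, with a median of 0.67 (0.74 without tamoxifen 1). By limma 0 of them had an unadjusted p under 0.05. The receptor genes Klrb1c, Ncr1, Klrd1, Klrc1 and Klrc2 were all at 0. Cd244, a receptor gene of NK cells and other leukocytes, was the only marker of this list whose groups did not overlap. It stood at 0.898, 4.82 and 3.71 in oil and 10.2, 8.08 and 32.7 in tamoxifen, on 10 and 52 reads, and did not pass the filter. Of all genes tested, 7.86% had groups that did not overlap with tamoxifen higher. The summed level was 515 to 1020 in oil and 832 to 1478 in tamoxifen, and it came mostly from Fcgr3, an Fc receptor gene that mast cells and macrophages also express (427 to 863 in oil and 658 to 1250 in tamoxifen), with the kinase gene Txk next (40.5 to 91.6 and 82.8 to 104).

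For T cells, 7 of 20 markers were at 0 and 16 stayed under 10. Cd3e, Cd8a, Cd8b1 and Trbc1 had 0 reads, and Cd3d, Cd3g and Zap70 had 1 read each in all libraries together. The summed level was 785 to 852 in oil and 863 to 1267 in tamoxifen, without overlap, led by the signalling genes Lat (342 to 403 and 416 to 872) and Cd247 (343 to 392 and 156 to 307). Of the 4 tested, 3 differences were positive and 1 negative, and 0 were called by limma with all libraries. Unadjusted, 1 was higher and 0 lower at p under 0.05, against 3.23% and 1.24% of all genes. Groups did not overlap for Lat and Tcrg-C1 (higher) and Cd247 (lower), against 7.86% and 9.69% of all genes tested. Tcrg-C1, a T cell receptor gamma constant gene, stood at 45.8, 12.5 and 27.9 in oil and at 55.0, 108 and 342 in tamoxifen. Its log2 difference was 2.28 ± 0.75 (SE, 2.88 without tamoxifen 1, limma adjusted p = 0.666, DESeq2 adjusted p = 0.0551, and 0.0376 by DESeq2 without tamoxifen 1). That last fit called 1.28% of all genes higher and 0.41% lower. Trdc, a T cell receptor delta constant gene, went the other way. It stood at 1.80, 1.93 and 1.86 in oil and at 0 in every tamoxifen library, and did not pass the filter. Of the plasmacytoid dendritic cell markers, Siglech had 1 read and Klk1 none. Of the 6 tested, 1 difference was positive and 5 negative, and 0 were called by limma. Among these, Clec10a alone had groups that did not overlap, with tamoxifen higher. It stood at 65.6, 31.8 and 44.6 in oil and at 170, 86.9 and 97.3 in tamoxifen (limma adjusted p = 0.666). Cox6a2 did not pass the filter, and its groups also lay apart, at 2.695, 1.93 and 1.86 in oil and 5.11, 4.04 and 9.09 in tamoxifen. The 11 markers of this list, 1 of them at 0 throughout, summed to 7837 to 8971 in oil and 3630 to 9748 in tamoxifen, and Ly6d (2279 to 6723) and Lair1 (521 to 1775) were the highest.

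All 19 mast cell and basophil markers were tested, with a summed level of 110766 to 129156 in oil and 85804 to 139381 in tamoxifen. Il1rl1, the interleukin 33 receptor gene, stood at 16744 to 40979 and Hdc, the histamine synthesis gene, at 21496 to 32583 over all libraries. Their log2 differences were positive for 10 and negative for 9, with a median of 0.05. Groups did not overlap for Tpsb2 and Mcpt8 (higher) and for Ms4a2 and Il4 (lower), the Fc receptor subunit and cytokine genes, at -1.09 and -0.61 (-0.30 and -0.16 without tamoxifen 1). These 2 of 19 in each direction are near the 7.86% and 9.69% of all genes. By limma 0 of the 19 were called with all libraries (3 higher and 1 lower unadjusted, against 3.23% and 1.24% of all genes) and 3 higher without tamoxifen 1, against 0.309% of all genes, the tryptase gene Tpsb2 (log2 difference 3.59, adjusted p = 0.00277), the carboxypeptidase gene Cpa3 (1.10, adjusted p = 0.00183) and the receptor gene Mrgprb2 (2.60, adjusted p = 0.00792). With all libraries these 3 differences were 3.03, 0.74 and 1.65 (limma adjusted p = 0.58, 0.666 and 0.666), and the groups of Cpa3 and Mrgprb2 overlapped, with Mrgprb2 in tamoxifen 1 at 10.2, below every oil library. With all libraries DESeq2 gave Tpsb2 an adjusted p of 2.5e-05. Tpsb2 stood at 7.19, 16.4 and 13 in oil and at 46.0, 153 and 148 in tamoxifen.

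Macrophage and neutrophil marker sums were higher in tamoxifen, at low levels. The 15 macrophage markers, 1 of them at 0 throughout, summed to 171 to 392 in oil and 531 to 621 in tamoxifen, without overlap. All 10 that were tested had positive differences, with a median of 1.18 (1.21 without tamoxifen 1), and 0 were called by limma with 6 at an unadjusted p under 0.05, against 3.23% of all genes higher. Hmox1, the heme oxygenase gene, had 64.7, 35.7 and 31.6 in oil and 115, 110 and 149 in tamoxifen, and a DESeq2 adjusted p of 0.0249. Axl, which encodes a receptor for dying cells, had 60.2, 24.1 and 38.1 in oil and 105, 86.9 and 72.8 in tamoxifen. The 12 neutrophil markers, of which 6 stayed under 10 and Ly6g was at 0, summed to 17.1 to 28.0 in oil and 41.8 to 80.5 in tamoxifen, with S100a8 at 0 to 1.86 and 6.37 to 21.2, and Mmp8 at 8.98 to 19.3 and 0 to 13.6. The sort took lineage-negative cells, a gate meant to remove mature T cells, macrophages and neutrophils. The part of macrophages, neutrophils or other cells in the Gzmb and Nkg7 values was not tested.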

How the data were processed

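RNA-seq was analysed from 3 oil and 3 tamoxifen libraries, grouped by their labels and described there as biological replicates. Members and gene lists were chosen with earlier results of these data known. The values the authors deposited are a normalized signal, here called normalized counts: each library's reads scaled by its own size factor. The submitters' processing notes name STAR, DESeq2 and mm10. Annotation, strand and filters are not given in the sources used here, and the labels name the Nextera DNA Flex kit. All values above 0 were whole multiples of 1 step per library (0.898 to 1.28, tolerance 0.001), and dividing by it recovered whole reads. In tamoxifen 2 this step was 1.01, too near 1 for an automatic test to separate it from unscaled counts. Rows without a gene name (1832 of 55450, 0.04% to 0.0614% of reads) were left out.

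Differences were tested on log2(value + 1) by limma 3.58.1 (trended eBayes, two-sided, Benjamini-Hochberg, threshold 0.05) over the 12298 genes with 10 or more in at least 3 libraries, and the code was tested on simulated data. Fold changes on this scale understate those of low genes. Alternatives were pseudocounts of 0.5 and 5, TMM and upper-quartile scaling, a replicate block, no filter, 1 CPM in 3 libraries, edgeR 4.0.16, DESeq2 1.42.0 on recovered reads, and each library left out. A GC correction (loess, span 0.3) and count tests without tamoxifen 1 were added after seeing the data. Genes were named by rule: members, granzymes and locus genes, called list genes, the 3 smallest p-values per pathway list, the 2 highest genes per marker list, Usp18, and the 5 genes most alike in pattern. Positions are from GENCODE vM21. Other named genes (Ctsb, Ctsd, Ctso, Srgn, Cst7, Cstb, Unc13d, Tcrg-C1, Trdc, Cd244, Clec10a, Cox6a2, Ms4a2, Il4, Tpsb2, Cpa3, Mrgprb2, Runx1t1, Ptprc, Cebpa, Gm26522, and marker or effector genes at or near 0) were chosen after their values were seen. Some genes that this rule names are not reported here.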

Additional observations from a re-analysis of the deposited data

How the results depend on the processing

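Gzmb and Nkg7 were higher in tamoxifen with other pseudocounts and scalings, with the GC correction and with each library left out, a direction that their choice fixes. Values of the members with the other filters, edgeR and DESeq2 are not given here. Gzmb had a log2 difference of 2.86 with a pseudocount of 5 and 3.59 with the GC correction, alone or with the replicate block, and 3.34 to 3.48 with each library left out. Nkg7 had 1.86 to 2.78 with each library left out. Ctsc ranged from -0.81 to 0.13 with each library left out, and the positive value was that without tamoxifen 1. The number of pathway genes called was 0 in either direction under all alternatives but DESeq2 without tamoxifen 1, with 3 higher. Over all genes, limma called 0 higher and 0 lower. Higher genes numbered 69 with DESeq2, 2 with the GC correction, and 0 with the GC correction and the replicate block together. They numbered 43 with edgeR without tamoxifen 1, 174 with DESeq2 without tamoxifen 1, and 0 to 38 with each library left out. Lower genes numbered 2 with DESeq2, 3 with edgeR without tamoxifen 1, 56 with DESeq2 without tamoxifen 1, and 0 to 3 with each library left out. The cause of these differences in count was not tested.

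Libraries were not paired by their replicate numbers: deviations of same-numbered libraries correlated at -0.02, 0.06 and -0.15, and of the 3 oil libraries oil 2 alone correlated best with its own number. With a replicate block, which leaves mean differences as they are in this balanced design (Gzmb 3.43), 0 genes were called, and genes at an unadjusted p under 0.05 numbered 332 higher and 94 lower, against 397 and 153 without the block. Gzmb values rest on 6 to 82 reads per library, and Gzma, Gzmc and Prf1 are known only to lie under the limit that a count of 0 allows.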
